A study of Homo sapiens with 9 samples.

Results

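Cholesterol and fatty acid synthesis were followed through 36 genes: 7 of the mevalonate pathway, 11 of the sterol branch that turns its product into cholesterol, 6 that control sterol regulatory element-binding proteins (SREBPs) or carry sterols, 8 of fatty acid synthesis and desaturation, and 4 that use or store fatty acyl groups. The genes were a list of names, found by matching the transcript accession of each array probe to a RefSeq symbol, and the brightest probe stood for a gene with several probes. All 36 were found, among 47753 gene names on the arrays. Measured values played no part in choosing the names from the files, but the list was drawn up with earlier results of these arrays known.

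OEC-M1, an established cell line of head and neck squamous cell carcinoma (HNSCC), was profiled on 9 Agilent arrays with 1 dye to ask which genes depend on GATA3 and on HIF-1α in low oxygen. There were 3 arrays of cells given non-targeting siRNA (si-Control), 3 of GATA3 knockdown cells and 3 of HIF-1α knockdown cells. Every group had the same genetic background, medium with serum, 72 h of transfection and 18 h at 1% O2, so no group shows the genes in normal oxygen or in untransfected cells. A legend of the study names a single siRNA for each target on these arrays, and effects of an siRNA beyond its target cannot be told apart from those of the knockdown. The labels do not say that the arrays of a group came from separate cultures, so P values measure the spread between these arrays, which may be technical.

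GATA3 had log2 intensities of 10.71, 11.12 and 11.48 in si-Control, 9.64, 9.48 and 10.40 in GATA3 knockdown and 10.30, 11.11 and 10.78 in HIF-1α knockdown cells. HIF1A had 16.71, 16.24 and 17.24 in si-Control, 17.02, 16.03 and 16.99 in GATA3 knockdown and 14.51, 14.13 and 14.59 in HIF-1α knockdown cells. Each targeted mRNA was thus below all 3 si-Control arrays in its own knockdown. The median spot intensity ran from 992.5 to 3560 over the arrays, and between 74.3% and 88.5% of spots were well above background. Each slide held 1 array of every group, in a fixed order, so the position on the slide and the group cannot be told apart. Of 9 epithelial and squamous markers, 7 were well above background on all 9 arrays and KRT5 on none. Of 4 fibroblast markers, COL3A1 and LUM were on none, and COL1A1 was on all 9, with log2 intensities of 12.90 to 14.91 on the arrays where its spot was uniform. Without COL1A1, which had no value on some arrays, the summed intensity of the other 3 was 619 to 1125 in si-Control, 511 to 629 in GATA3 knockdown and 797 to 1154 in HIF-1α knockdown cells, against at least 287787 for the epithelial list. Both leukocyte markers with a value on all 9 arrays were well above background on each, with sums of 40019 to 102816, 58522 to 97066 and 100535 to 105121 in the same order. The sums of 3 endothelial markers were 5152 to 17156, 6961 to 14687 and 14197 to 18953, and those of 2 adipocyte markers, 1483 to 1850, 1845 to 2511 and 958 to 1620. The part of these markers in the results was not tested, and fewer cells of a type and less RNA per cell cannot be told apart.

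In the mevalonate pathway, acetyl-CoA is built up into isoprenoid units, which the sterol branch joins into squalene and closes and trims into cholesterol, and several of these steps consume oxygen. Transcription of most of these genes is driven by SREBPs, which SCAP escorts from the endoplasmic reticulum when sterols are scarce and which the INSIG proteins hold back when sterols are plentiful. Fatty acid synthesis starts from the acetyl-CoA that ACLY makes from citrate, and its products are desaturated, elongated and stored as triglyceride in lipid droplets, which cells commonly gather in low oxygen.

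Of the 36 genes, 34 were well above background on all 9 arrays, the exceptions being PLIN2 and TM7SF2. A single probe measured 29 of them and several probes measured 7. The replicate SD of a gene within a group ran from 0.014 to 1.00 on the log2 scale, with a median of 0.37. The median SD of these genes was 0.46 over the si-Control arrays, 0.49 over those of GATA3 knockdown cells and 0.26 over those of HIF-1α knockdown cells, beside 0.43, 0.37 and 0.26 for all genes. The HIF-1α knockdown arrays therefore lay closest together for these genes, as they did for all genes. SQLE and STARD4 had no value on HIF-1α knockdown replicate 1, where the scanner software marked the spot as non-uniform, and their fits used the other arrays.

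**Figure D1:**
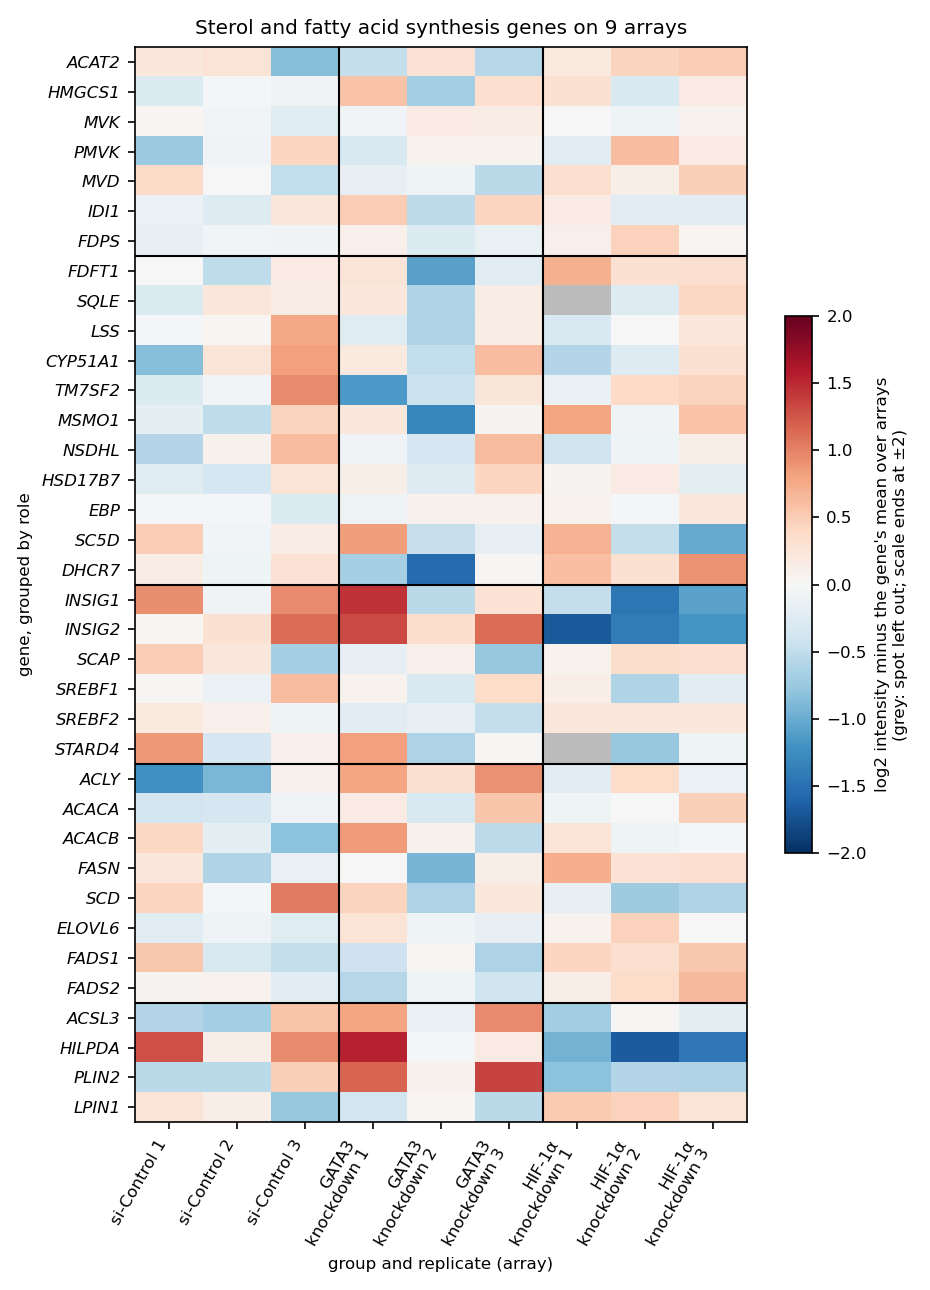
Log2 intensity of each of the 36 genes minus that gene's mean over the 9 arrays, with genes in rows grouped by role and arrays in columns grouped by siRNA; red is above and blue below the gene's mean, and grey is a spot left out. INSIG1, INSIG2 and HILPDA are blue on all 3 HIF-1α knockdown arrays, and the sterol branch is mostly blue on GATA3 knockdown replicate 2, where 10 of its 11 genes lie below their own mean.

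The first comparison asked which lipid synthesis genes depended on HIF-1α in low oxygen. HIF-1α knockdown cells had lower levels of INSIG2 and INSIG1, the proteins that retain SCAP and SREBP in the endoplasmic reticulum, of SCD, the desaturase that makes oleate from stearate, and of HILPDA, a lipid droplet protein that inhibits triglyceride breakdown. The fall was 3.78-fold for INSIG2, 3.02-fold for INSIG1, 1.96-fold for SCD and 4.37-fold for HILPDA. These 4 of 36 genes (11.1%) had an unadjusted P under 0.05 in limma, beside 5.23% of all 47368 genes tested, and 0 of the 36 rose. In all genes, 3.28% fell and 1.95% rose. After Benjamini-Hochberg adjustment over all genes, 0 of the 36 passed, and the smallest adjusted P was 0.343 in limma.

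The promoters of INSIG2, INSIG1 and SCD are shown because these genes fell together. They are the 250 bases before the RefSeq start on assembly GRCh38.p14, written 5′ to 3′ on the strand of the gene, at chr2:118088221-118088470 (plus strand) for INSIG2, chr7:155297628-155297877 (plus strand) for INSIG1 and chr10:100346983-100347232 (plus strand) for SCD. Capitals mark the letters ACGTG or GCGTG, the core to which HIF-1 binds, on either strand.
INSIG2: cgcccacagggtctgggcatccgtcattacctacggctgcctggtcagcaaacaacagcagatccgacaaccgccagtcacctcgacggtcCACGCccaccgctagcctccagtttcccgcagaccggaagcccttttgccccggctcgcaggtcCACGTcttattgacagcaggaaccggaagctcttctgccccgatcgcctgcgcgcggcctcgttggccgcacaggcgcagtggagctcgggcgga
INSIG1: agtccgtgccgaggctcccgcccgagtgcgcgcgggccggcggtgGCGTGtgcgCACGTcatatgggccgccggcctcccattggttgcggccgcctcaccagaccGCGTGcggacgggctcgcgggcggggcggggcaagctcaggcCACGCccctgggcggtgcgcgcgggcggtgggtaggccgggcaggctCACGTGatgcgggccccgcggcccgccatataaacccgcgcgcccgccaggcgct
SCD: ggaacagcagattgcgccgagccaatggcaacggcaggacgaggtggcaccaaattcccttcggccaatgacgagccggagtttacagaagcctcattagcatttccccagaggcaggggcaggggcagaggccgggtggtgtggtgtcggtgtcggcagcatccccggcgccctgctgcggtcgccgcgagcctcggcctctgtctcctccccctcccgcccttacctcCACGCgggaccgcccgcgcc
INSIG2 had 2 matches, INSIG1 had 6, with an ACGTG on each strand overlapping in CACGTG, and SCD had 1. Promoters were matched for 31 of the 36 genes, and not for ACAT2, FDFT1, SQLE, FASN and HILPDA. Of the 31, 25 (80.6%) held either form of the core, and so did 43.1% of all 27305 promoters and 50.5% of those of coding genes. The 31 promoters had a median GC content of 68.0%, above the 58.0% of all promoters and the 62.4% of coding ones. Most of the 25 genes with a match had no call, so a match was not particular to the genes that fell.

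INSIG2 had log2 intensities of 15.06, 15.32 and 16.14 in si-Control, 16.34, 15.36 and 16.13 in GATA3 knockdown and 13.33, 13.62 and 13.82 in HIF-1α knockdown cells. All 3 HIF-1α knockdown arrays lay more than 1 log2 unit below every other array. The log2 fold change was -1.92 (SE 0.35, adjusted P = 0.343, limma), and a second INSIG2 probe gave -2.14. INSIG1 had 15.09, 14.09 and 15.10 in si-Control, 15.60, 13.62 and 14.44 in GATA3 knockdown and 13.69, 12.72 and 13.08 in HIF-1α knockdown cells. Its HIF-1α knockdown arrays were below all si-Control arrays but overlapped the GATA3 knockdown arrays at the lowest of these. The log2 fold change of INSIG1 was -1.60 (SE 0.50, adjusted P = 0.823, limma).

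HILPDA had log2 intensities of 17.35, 16.19 and 17.00 in si-Control, 17.60, 16.04 and 16.22 in GATA3 knockdown and 15.12, 14.40 and 14.63 in HIF-1α knockdown cells. The HIF-1α knockdown arrays lay below the other 6, with a log2 fold change of -2.13 against si-Control (SE 0.45, adjusted P = 0.494, limma). SCD had 13.91, 13.45 and 14.51 in si-Control, 13.91, 12.86 and 13.68 in GATA3 knockdown and 13.32, 12.77 and 12.87 in HIF-1α knockdown cells. Its HIF-1α knockdown arrays were below every si-Control array by a narrow gap, with a log2 fold change of -0.97 (SE 0.36, adjusted P = 0.823, limma). Within the slides, SCD differed by -0.59, -0.68 and -1.64, INSIG2 by -1.72, -1.71 and -2.32, INSIG1 by -1.40, -1.37 and -2.02, and HILPDA by -2.23, -1.78 and -2.37. When the arrays were left out one by one, INSIG1, INSIG2 and HILPDA kept their call in 9 of 9 fits and SCD in 6, losing it without si-Control replicate 3 (-0.70), HIF-1α knockdown replicate 2 (-0.86) or HIF-1α knockdown replicate 3 (-0.92). SCD also lost its call when the brightness of the array was a covariate (-0.72).

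Apart from SCD, no enzyme of either pathway passed the threshold in HIF-1α knockdown cells. In the mevalonate pathway, 6 of 7 genes had a positive log2 fold change in HIF-1α knockdown cells, and 0 passed the threshold. The median was 0.29, with values between -0.049 and 0.50. MVK, a kinase counted among the positive genes at 0.084, turned negative in some alternatives. It had -0.33 with processed signals scaled to a common 75th percentile, -0.33 with the deposited log2 table and -0.36 with that scaling after normexp. ACAT2, the cytosolic thiolase of the first step, had 0.50, MVD, which makes isopentenyl diphosphate, had 0.34, and FDPS, the farnesyl diphosphate synthase, had 0.29. In fatty acid synthesis, 7 of 8 genes were positive with a median of 0.40, and SCD was the only negative one. FASN, the fatty acid synthase, had 0.63 (95% interval from limma, -0.12 to 1.38), with 14.64, 13.81 and 14.27 in si-Control and 15.14, 14.72 and 14.76 in HIF-1α knockdown cells. These groups did not overlap, and FASN, which had no call, passed the unadjusted threshold with the slide as a block, without si-Control replicate 1 and without GATA3 knockdown replicate 2. ACLY had 0.70 and did not pass, but it had 1.08 and passed without si-Control replicate 3, and 1.16 and passed with array brightness as a covariate. The 11 sterol branch genes ranged from -0.46 for SC5D to 0.56 for FDFT1, the squalene synthase, with a median of 0.049.

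Among the 34 genes with all 6 values, 13 (38.2%) had HIF-1α knockdown arrays that did not overlap the si-Control arrays, beside 13.3% of all genes, 5.19% above and 8.08% below. The 8 that lay above were FDPS, FDFT1, DHCR7, SREBF2, FASN, ELOVL6, FADS2 and LPIN1, none of which passed the test, with log2 fold changes from 0.15 for SREBF2 to 0.63 for FASN. The 5 that lay below were the 4 genes that fell and PLIN2. PLIN2, the coat protein of lipid droplets, had 7.85, 7.86 and 8.86 in si-Control and 7.58, 7.80 and 7.79 in HIF-1α knockdown cells, where the probe was not well above background on any array. Its fitted level was 1.38-fold lower there (adjusted P = 0.823 in limma), with a log2 95% interval of -1.33 to 0.39 that includes no change. The log2 fold change of PLIN2 was -0.47, and it was -1.27 with processed signals scaled to a common 75th percentile. With the deposited log2 table it was -1.26, and neither alternative passed. Only 1 of 3 si-Control arrays measured PLIN2 well above background. Over all 36 genes, 23 were positive and 13 negative, with a median of 0.17 beside -0.010 over all genes tested.

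The SREBPs themselves had no call. SREBF1, whose products favour fatty acid synthesis, had log2 intensities of 12.73, 12.58 and 13.33 in si-Control, 12.77, 12.40 and 13.07 in GATA3 knockdown and 12.83, 12.10 and 12.49 in HIF-1α knockdown cells. The groups overlapped, and in HIF-1α knockdown cells the 2 SREBF1 probes gave -0.40 and 0.0076. SREBF2, whose product favours sterol synthesis, had 15.82, 15.72 and 15.54 in si-Control and 15.85, 15.84 and 15.82 in HIF-1α knockdown cells, a difference of 0.15 (95% interval -0.32 to 0.62). SCAP had 0.24 (95% interval from the same fit, -0.53 to 1.00).

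**Figure D2:**
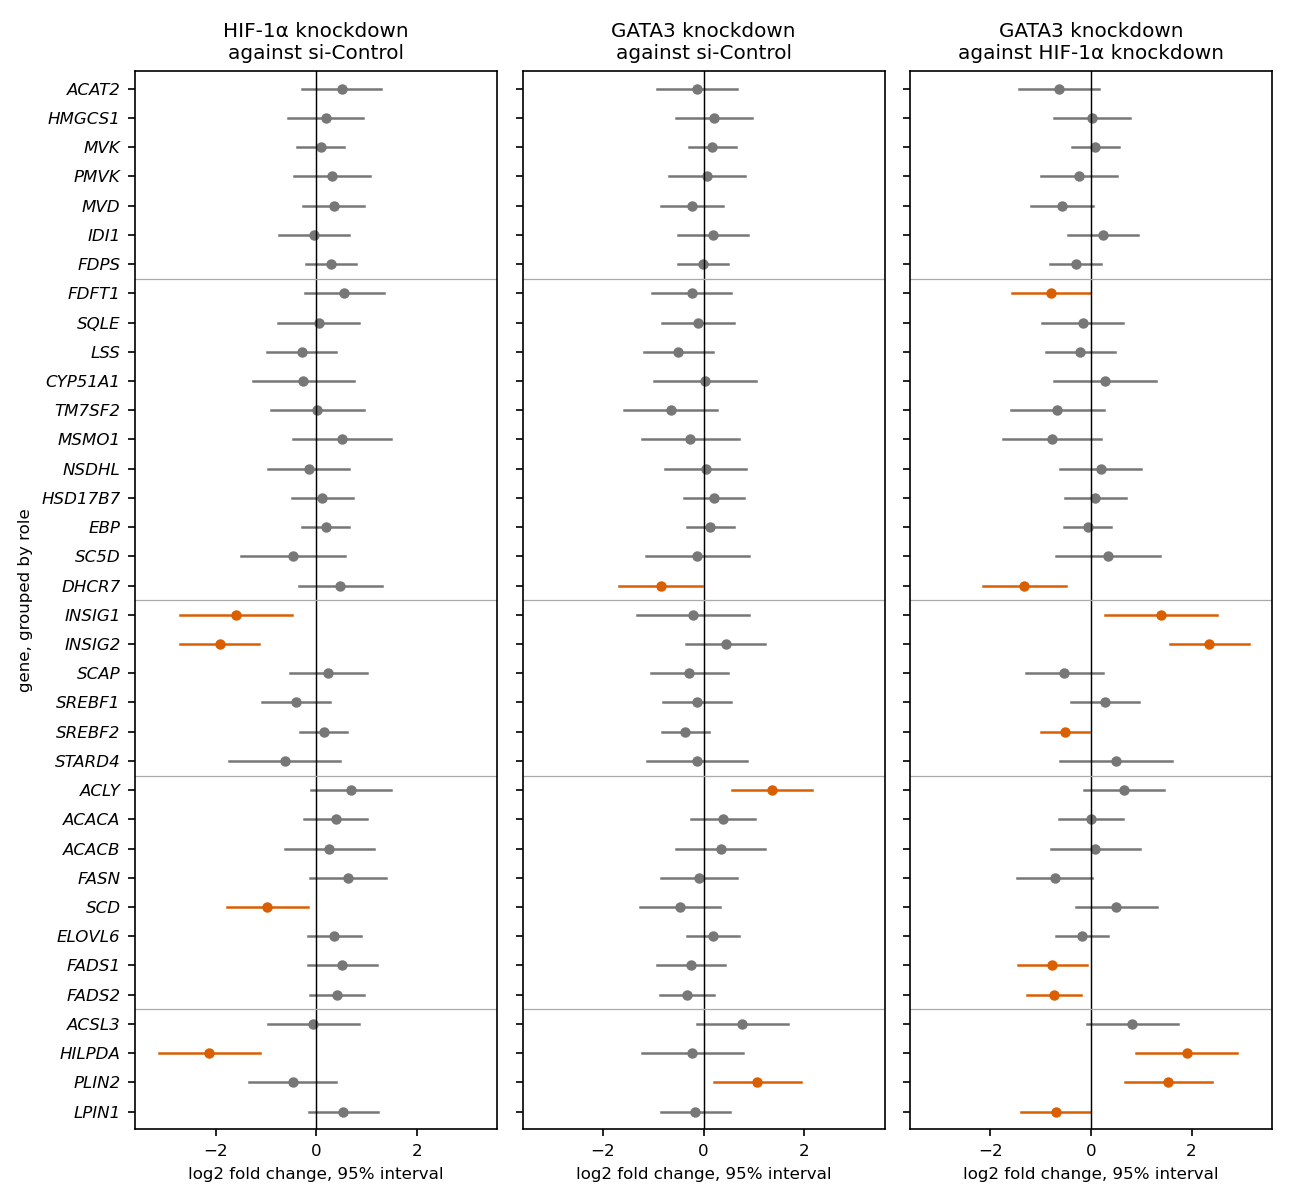
Log2 fold change of each of the 36 genes (points) with its 95% interval from limma (bars) in the 3 comparisons, genes in rows grouped by role; orange marks an unadjusted P under 0.05. In HIF-1α knockdown against si-Control, INSIG1, INSIG2, SCD and HILPDA are the orange points and all lie below 0, while most other genes lie slightly above it.

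The second comparison put the same question to GATA3. GATA3 knockdown cells had 2.56-fold more ACLY, the ATP citrate lyase that supplies acetyl-CoA to both pathways, and 1.80-fold less DHCR7, the reductase of the last step of cholesterol synthesis. PLIN2 was 2.10-fold higher, as measured on a probe that was well above background on 1 of 3 si-Control and 2 of 3 GATA3 knockdown arrays. These 3 of 36 genes (8.33%) had an unadjusted P under 0.05 in limma, beside 2.97% of all 47720 genes tested, of which 1.59% were higher and 1.38% lower. After adjustment over all genes 0 passed in limma, and the smallest adjusted P was 1.00. The median log2 fold change was -0.12, beside -0.018 over all genes, with 15 genes positive and 21 negative.

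ACLY had log2 intensities of 13.60, 13.91 and 14.90 in si-Control, 15.61, 15.12 and 15.73 in GATA3 knockdown and 14.59, 15.19 and 14.71 in HIF-1α knockdown cells. Every GATA3 knockdown array was above every si-Control array, and si-Control replicate 3 was closest to them. The log2 fold change was 1.35 (SE 0.36, adjusted P = 1.00, limma). Within the slides it was 2.01, 1.22 and 0.83. ACLY passed in 9 of 9 fits with an array left out, with values of 1.09 to 1.73, and with array brightness as a covariate its adjusted P was 0.0448 in limma. Directly against HIF-1α knockdown cells, ACLY had 0.66 (95% interval from limma, -0.14 to 1.45), which did not pass. That difference passed with only the 6 arrays compared and without si-Control replicate 3, but was 0.17 with array brightness as a covariate, without passing.

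PLIN2 had log2 intensities of 9.56, 8.48 and 9.75 in GATA3 knockdown cells, beside the si-Control values given above. Replicates 1 and 3 exceeded every si-Control array, while replicate 2 lay below si-Control replicate 3. The log2 fold change was 1.07 (SE 0.39, adjusted P = 1.00, limma), and the call was lost without each of si-Control replicates 1 and 2 and GATA3 knockdown replicates 1 and 3, with values of 0.83 to 1.46 over the 9 fits. The other alternatives that measured it gave 1.05 to 1.54. DHCR7 had 12.34, 12.11 and 12.48 in si-Control, 11.52, 10.65 and 12.20 in GATA3 knockdown and 12.79, 12.48 and 13.09 in HIF-1α knockdown cells. GATA3 knockdown replicate 3 overlapped the si-Control arrays, and the log2 fold change was -0.85 (SE 0.37, adjusted P = 1.00, limma). With an array left out, DHCR7 kept its call in 1 of 9 fits, the one without GATA3 knockdown replicate 3 (-1.22), and it was -0.44 without GATA3 knockdown replicate 2. It passed in 6 of the 11 other alternatives, with values of -0.88 to -0.80, and among those it missed were the processed signals of the scanner software scaled to a common 75th percentile (the scaled processed signals) and the deposited log2 table.

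No gene of the mevalonate pathway had a call in GATA3 knockdown cells, and the 7 log2 fold changes lay between -0.23 for MVD and 0.20 for HMGCS1, the HMG-CoA synthase. In the sterol branch, 7 of 11 genes were negative with a median of -0.12. LSS, which closes squalene epoxide into lanosterol, had -0.50, and TM7SF2, a sterol reductase, had -0.65, and neither passed. TM7SF2 did with the slide as a block and without GATA3 knockdown replicate 3, and LSS with array brightness as a covariate. SREBF2 had 15.39, 15.45 and 15.14 in GATA3 knockdown cells, each below every si-Control array, but the difference of -0.37 did not pass (95% interval from limma, -0.84 to 0.10). INSIG1 had -0.20 (95% interval from limma, -1.32 to 0.91), INSIG2 had 0.44, SCD had -0.47 and HILPDA had -0.23, none of which passed. ACSL3, which activates fatty acids at lipid droplets, had 0.77, which did not pass, and 1.16 without si-Control replicate 3, which did. It also passed without GATA3 knockdown replicate 2 and with array brightness as a covariate (0.74). Of the 36 genes, ACLY and SREBF2 were the 2 (5.56%) whose GATA3 knockdown and si-Control arrays did not overlap, beside 6.03% of all genes, 2.59% above and 3.43% below.

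**Figure D3:**
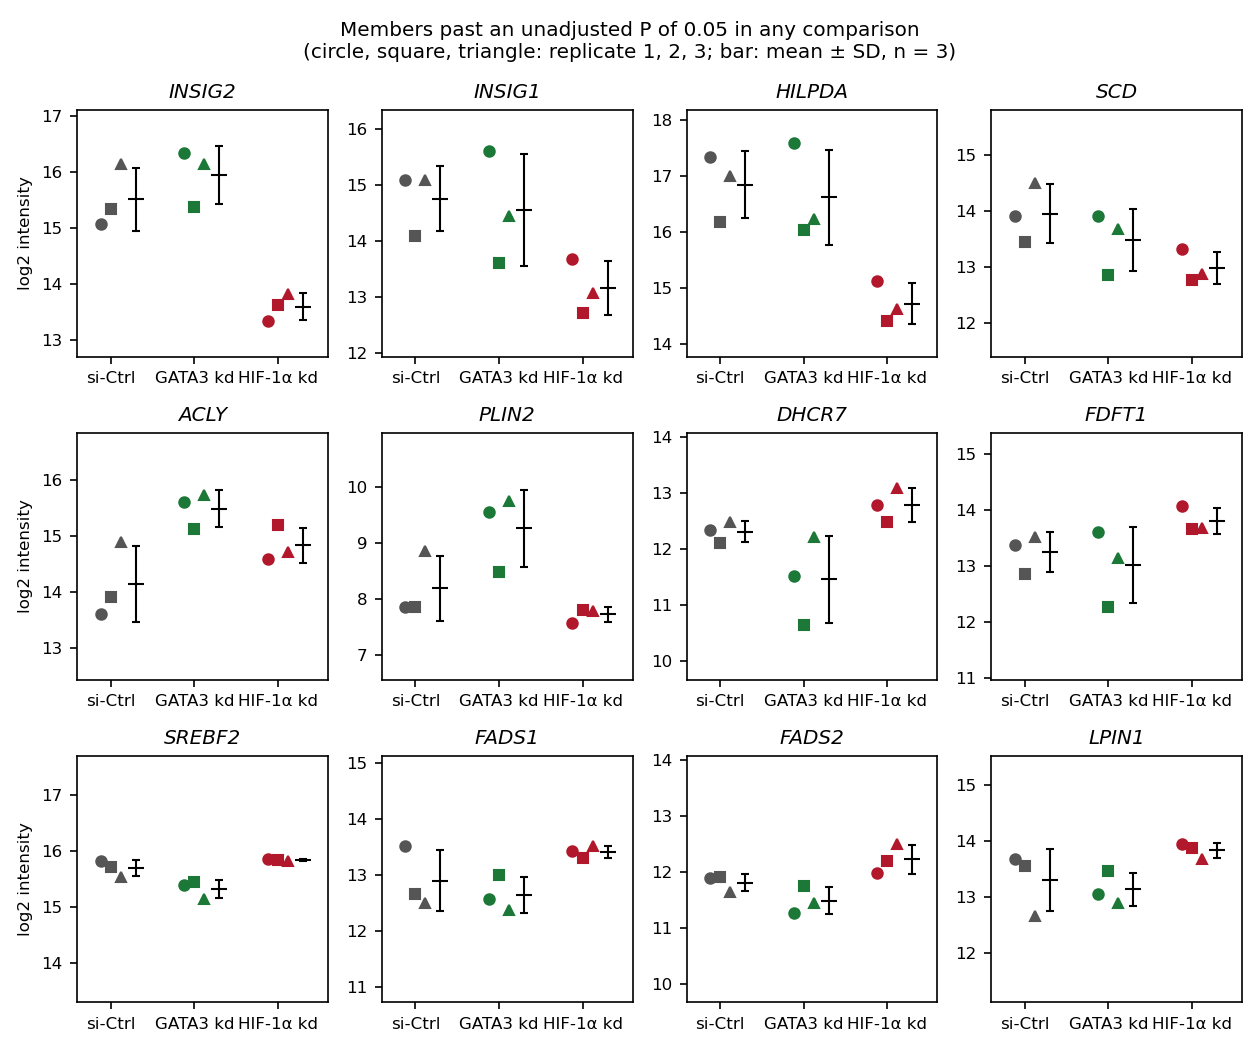
Log2 intensity on each array (circle, square and triangle for replicates 1, 2 and 3) with the group mean ± SD (n = 3 arrays), for the 12 genes with an unadjusted P under 0.05 in any comparison; every panel has its own vertical range. The HIF-1α knockdown arrays sit lowest for INSIG2 and HILPDA, the GATA3 knockdown arrays sit highest for PLIN2 in 2 of 3 replicates, and SREBF2 is between 15.82 and 15.85 in HIF-1α knockdown cells.

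Spread within the GATA3 knockdown group followed single arrays. GATA3 knockdown replicate 2 gave the lowest of its group's values for 23 of 36 genes, and for 12 of the genes in the mevalonate pathway and sterol branch. The sterol branch genes there had a median deviation of -0.50 from their own means over the 9 arrays, beside 0.12 and 0.15 on replicates 1 and 3, and 10 of the 11 lay below their mean. Over all genes the median deviation of that array was -0.0078. Without it, the median log2 fold change of the 36 genes in GATA3 knockdown cells was 0.14 in place of -0.12. Of the 36 genes, 9 had the lowest value of all 9 arrays on this array, more than on any other array.

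**Figure D4:**
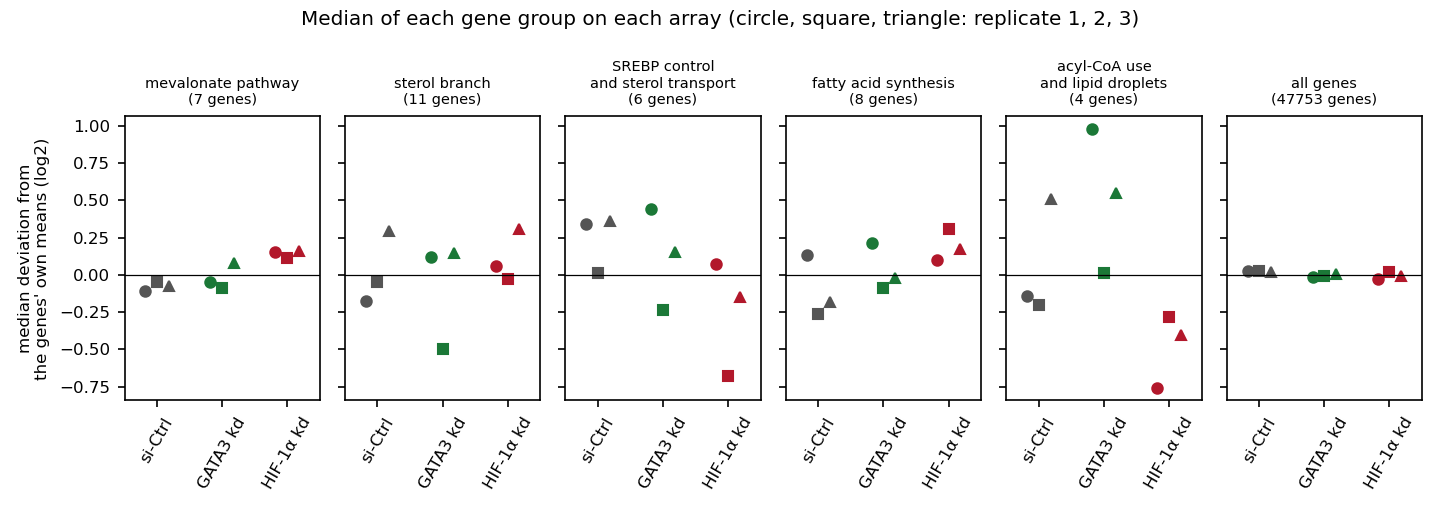
Median over each gene group of the log2 deviation from the genes' own means, for each array (circle, square and triangle for replicates 1, 2 and 3) and each siRNA, with all genes at the right. The sterol branch median of GATA3 knockdown replicate 2 is -0.50, and the all-gene medians stay between -0.027 and 0.029.

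The knockdowns were then compared with each other directly, which tests whether the effects differ. Relative to HIF-1α knockdown cells, INSIG2, INSIG1, HILPDA and PLIN2 were higher in GATA3 knockdown cells, and DHCR7, FDFT1, SREBF2, FADS1, FADS2 and LPIN1 were lower. These 10 of 36 genes (27.8%) had an unadjusted P under 0.05 in limma, beside 12.0% of all 47356 genes tested, with 6.93% of all genes higher and 5.05% lower. Among the markers of cell types reported here, DCN, KRT6A and KRT18 were also lower in this comparison and PLIN1 higher, with log2 differences from -1.48 to 0.72, and their part was not tested. After adjustment 0 of the 36 passed in limma, with a smallest adjusted P of 0.130, and 0.00422% of all genes did. SREBF2 lay among them, and its promoter is shown because it was the single one of the 31 with the sterol regulatory element letters TCACNCCAC (capitals), found in 0.875% of all promoters. It spans chr22:41832855-41833104 on GRCh38.p14 (plus strand, RefSeq), 250 bases before the start.
SREBF2: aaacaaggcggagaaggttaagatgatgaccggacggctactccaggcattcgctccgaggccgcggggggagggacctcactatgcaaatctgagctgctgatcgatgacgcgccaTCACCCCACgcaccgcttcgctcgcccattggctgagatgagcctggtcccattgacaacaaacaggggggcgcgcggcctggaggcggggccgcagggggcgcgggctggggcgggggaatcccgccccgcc
CCAAT, the letters bound by NF-Y, was in 58.1% of the 31 promoters, beside 33.0% of all promoters and 34.5% of coding ones. The GATA letters AGATAA and AGATAG, or else the letters TGATAA and TGATAG, were in 22.6%, beside 22.9% of all and 17.7% of coding ones. All motifs were searched on both strands.

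INSIG2 was 5.12-fold higher with GATA3 knocked down than with HIF-1α knocked down, a log2 difference of 2.36 (SE 0.35, adjusted P = 0.130, limma), and its second probe gave 2.22. It passed in 9 of 9 fits with an array left out, and its adjusted P was 0.0324 in limma without si-Control replicate 3 and 0.0430 with the slide as a block. INSIG1 was 2.62-fold higher, a log2 difference of 1.39 (SE 0.50, adjusted P = 0.384, limma), although GATA3 knockdown replicate 2 overlapped the HIF-1α knockdown arrays. Its call was lost without GATA3 knockdown replicate 1 (0.87), HIF-1α knockdown replicate 2 (1.17) or HIF-1α knockdown replicate 3 (1.35), and with array brightness as a covariate (1.26).

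Lipid droplet genes also separated the knockdowns. HILPDA was 3.74-fold higher in GATA3 knockdown cells, a log2 difference of 1.90 (SE 0.45, adjusted P = 0.251, limma), with no overlap and 9 of 9 calls with an array left out. With the slide as a block, its adjusted P was 0.0473 in limma. PLIN2 was higher in GATA3 knockdown cells by a fitted 2.90-fold (adjusted P = 0.279, limma), again without overlap. Its log2 95% interval was 0.68 to 2.40, and no HIF-1α knockdown array measured it well above background. The fitted log2 difference of PLIN2 was 1.54, and it was 2.80 with the scaled processed signals and 1.05 with array brightness as a covariate. ACSL3 had a log2 difference of 0.82, which passed only in some alternatives, the slide as a block among them. LPIN1, a phosphatidate phosphatase of triglyceride synthesis, had 13.68, 13.57 and 12.67 in si-Control, 13.06, 13.48 and 12.89 in GATA3 knockdown and 13.95, 13.89 and 13.69 in HIF-1α knockdown cells. The knockdowns did not overlap, and LPIN1 was lower in GATA3 knockdown cells by a log2 difference of -0.70 (SE 0.31, adjusted P = 0.414, limma), but its second probe gave -0.14.

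In the sterol branch, DHCR7 was 2.51-fold lower with GATA3 knocked down than with HIF-1α knocked down, a log2 difference of -1.33 (SE 0.37, adjusted P = 0.316, limma). The knockdowns did not overlap, the si-Control arrays lay between their means, and DHCR7 passed in 9 of 9 fits with an array left out. FDFT1 had 13.37, 12.85 and 13.53 in si-Control, 13.62, 12.28 and 13.14 in GATA3 knockdown and 14.07, 13.67 and 13.68 in HIF-1α knockdown cells. The knockdowns were apart by a narrow gap, and the log2 difference was -0.79 (SE 0.35, adjusted P = 0.416, limma). SREBF2 had a log2 difference of -0.52 (SE 0.21, adjusted P = 0.404, limma), 1.43-fold lower in GATA3 knockdown cells. MSMO1, a sterol C4 demethylation enzyme, had -0.77 and TM7SF2 had -0.67, and neither passed. With the slide as a block or with array brightness as a covariate both did, and TM7SF2 also with the scaled processed signals, with the deposited log2 table and without GATA3 knockdown replicate 3.

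FADS1 and FADS2, the desaturases that make polyunsaturated fatty acids and lie beside each other in the genome, were both lower in GATA3 knockdown cells. FADS1 had 13.52, 12.67 and 12.51 in si-Control, 12.58, 13.01 and 12.38 in GATA3 knockdown and 13.43, 13.31 and 13.52 in HIF-1α knockdown cells. FADS2 had 11.90, 11.91 and 11.64 in si-Control, 11.28, 11.76 and 11.45 in GATA3 knockdown and 11.98, 12.21 and 12.50 in HIF-1α knockdown cells. For both genes the HIF-1α knockdown arrays lay above the GATA3 knockdown arrays, while the si-Control arrays overlapped both for FADS1 and the latter for FADS2. The log2 differences were -0.77 for FADS1 (SE 0.31, adjusted P = 0.398, limma) and -0.73 for FADS2 (SE 0.24, adjusted P = 0.366, limma). FASN had -0.72, which did not pass, but it passed with the slide as a block, with non-uniform spots kept and without GATA3 knockdown replicate 3. ACACB, a mitochondrial acetyl-CoA carboxylase, had 0.085 on its brightest probe, which did not pass, and -0.99 on a dimmer one, which passed.

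Several of these calls did not hold with fewer arrays. When the arrays were left out one by one, FADS2 passed in 8 of 9 fits, missing without HIF-1α knockdown replicate 3 (-0.60). FADS1 passed in 4, LPIN1 and SREBF2 in 3 each, and FDFT1 in 2, and these 4 genes lost their calls without each of the HIF-1α knockdown arrays, as well as without others. Their log2 differences over the 9 fits were -0.94 to -0.63 for FADS1, -0.87 to -0.58 for LPIN1, -0.58 to -0.42 for SREBF2 and -1.10 to -0.43 for FDFT1. These 4 calls also moved with the processing. Of 11 other alternatives, FADS1 passed in 8, SREBF2 in 7, and FDFT1 and LPIN1 in 4 each, and all 4 genes missed the threshold with the scaled processed signals and with the deposited log2 table. With array brightness as a covariate FADS1 had -0.45 and LPIN1 -0.34, and neither passed. Of the 34 genes with all 6 values, 11 (32.4%) did not overlap between the knockdowns, 3 above and 8 below in GATA3 knockdown cells, beside 22.8% of all genes. FASN and MVD were the non-overlapping genes without a call.

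The 37 further genes of sterol transport and sensing, elongation and triglyceride synthesis had calls in either direction near or below the share of all genes. In GATA3 knockdown cells 0 of 37 had an unadjusted P under 0.05 in limma, beside 2.97% of all genes. In HIF-1α knockdown cells 2 of 37 (5.41%) fell and 0 rose, and both were relatives of LPIN1. Of all genes, 5.23% were called in either direction and 3.28% fell. LPIN3 had 13.10, 14.15 and 15.05 in si-Control, between 13.99 and 14.36 in GATA3 knockdown and 11.78, 12.79 and 12.82 in HIF-1α knockdown cells. Every HIF-1α knockdown array was below every other one, and the log2 fold change was -1.64 (SE 0.47, adjusted P = 0.809, limma). LPIN2 had -0.98 (SE 0.43, adjusted P = 0.823, limma). LPIN1 had 0.54 in the same comparison, which did not pass. In the direct comparison 3 of 37 (8.11%) had a call, beside 12.0% of all genes. LPIN3 (1.65) and SOAT1, which esterifies cholesterol (0.93), were higher in GATA3 knockdown cells and ACSS2, which makes acetyl-CoA from acetate (-1.07), was lower. The median of the 37 was -0.020 with GATA3 knocked down, 0.025 with HIF-1α knocked down and -0.034 in the direct comparison.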

How the data were processed

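Per the labels, the authors hybridised 1-dye Agilent arrays and read them with Feature Extraction 10.5.1.1. The deposited files hold linear intensity, as the median signal of a spot and the median of the background around it, with no normalization between arrays. The deposited log2 table equals, for all 57901 single-spot probes and within 0.001, the log2 processed signal less a constant per array. It was used as an alternative.

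Following the study's methods, non-uniform spots were left out, the background was corrected and arrays were quantile normalized. The kind of background correction is not given in the sources used here, and normexp with an offset of 50 was chosen. Control spots were dropped, replicate spots averaged, and the brightest probe taken per gene. Of 58201 probes, 31104 matched a RefSeq symbol (22439 symbols), and the rest keep the accession of the file. The 3 groups were fitted in 1 model over all genes (R 4.3.3, limma 3.58.1, lmFit and eBayes, two-sided). A gene was called at an unadjusted P under 0.05, as in the methods, and adjusted P values use Benjamini-Hochberg over all genes. The fit was tested on simulated data. Where no array of a group measured a probe well above background, the fold was taken against the higher of its own signal and the lowest signal among probes above background. For PLIN2 this equalled the fitted fold, so it sets no minimum.

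The 36 genes, the 37 further pathway genes, the markers and the motifs were chosen with earlier results of these data known. All 36 may be named, array values are given for those called in any comparison and for SREBF1, and others of the 37 only where called. Replicate numbers came from the labels, and the file headers put equal numbers on 1 slide, scanned together. Deviations from the group means correlated between arrays of a slide with r from -0.19 to 0.72 across 39926 genes, so not every pair moved together. The number of arrays limits the precision. The alternatives were other background corrections and normalizations, the deposited table, dim probes filtered out, non-uniform spots retained, the mean over probes, the slide as a block, 6-array fits, another variance model, array brightness as a covariate, adjusted P and each array left out. Both knockdowns share the si-Control arrays, so overlaps between them were not analysed here. A marker gene of the lists is not reported here.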

Additional observations from a re-analysis of the deposited data

How the results depend on the processing

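Over 20 alternatives per gene and comparison, 0 called values turned direction. The fits with an array left out gave 1 to 4 calls among the 36 genes in GATA3 knockdown, 3 to 6 in HIF-1α knockdown and 4 to 14 in the direct comparison. The share of all genes called moved too. Beside the 4 calls in GATA3 knockdown it was 12.7%, and beside the 6 in HIF-1α knockdown 10.1%. In the direct comparison it was 20% beside 14 calls and 6.33% beside 4. The main fit gave 3, 4 and 10 at the unadjusted threshold, and 0 in each at an adjusted P under 0.05 in limma. The direct comparison had 7 calls with no normexp offset, and also with the scaled processed signals, with the deposited log2 table and with 75th percentile scaling after normexp. Between 10.1% and 11.8% of all genes were called in those fits. With the slide as a block there were 14. With array brightness as a covariate, 6 genes were called in GATA3 knockdown, beside 10.1% of all genes, and the median of the direct comparison was -0.21. The median in HIF-1α knockdown (0.17) was 0.10 with processed signals at a common 75th percentile, 0.0973 with the authors' log2 table, 0.0920 with that scaling after normexp, 0.19 with the filter on dim probes, 0.22 with non-uniform spots kept, 0.18 with the mean over probes and 0.18 with the brightness covariate. With an array left out it ran from 0.13 to 0.20, that of GATA3 knockdown from -0.13 to 0.14 and that of the direct comparison from -0.16 to 0.076. With the replicate block (equal numbers share a slide), the medians were unchanged, no call was lost, and TM7SF2 (-0.65) in GATA3 knockdown, FASN (0.63) in HIF-1α knockdown, and FASN (-0.72), MSMO1 (-0.77), TM7SF2 (-0.67) and ACSL3 (0.82) in the direct comparison became called. With that block, 4.99% of all genes were called in GATA3 knockdown, 8.41% in HIF-1α knockdown and 18.7% in the direct comparison. The cause of these changes was not tested. The arrays number 3 per group, and the dim probe of PLIN2 gives only an uncertain fold against HIF-1α knockdown cells.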
